A study of Mus musculus with 17 samples.

Results

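The response to dextran sulfate sodium (DSS) in wild-type mice was measured in RNA of colon preparations labelled as macrophages. It covered 6 of the 17 libraries of the study and the 13517 genes, of 27179 in the tables, that passed a filter on low counts. NN is the group with no treatment named (WT_NN, replicates 1, 2 and 3) and NP the group given DSS for 6 days with no antibiotic before it (WT_NP, replicates 7, 8 and 9). All 6 mice were of strain C57BL/6(h-2b), were 8 weeks old and carried no engineered allele named in the labels. Cells were taken from the colon by washing and digestion with type IV collagenase, and no sorting step is named. The labels number 1 mouse per library, so the p-values measure the spread between these samples. The 2 groups were deposited in separate tables, so any difference in handling between the tables and the effect of DSS cannot be told apart. The study also holds mice deficient in MCJ, a protein encoded by Dnajc15 that binds complex I of the respiratory chain, and these enter the last comparison below and the fits of 11 and of all 17 libraries that serve as alternatives. The MCJ-deficient mice were also 8 weeks old, and their NP group was given DSS for 6 days. The fit of all 17 libraries also holds groups of both genotypes given an antibiotic for 7 days and DSS for 6 days.

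DSS is a sulfated polysaccharide that damages the epithelium of the colon and lets gut bacteria reach the tissue beneath it. Neutrophils and monocytes then leave the blood, drawn by CXC and CC chemokines, and release calgranulins, proteases and interleukin 1. The epithelium in turn secretes antimicrobial lectins, and its mature colonocytes, which absorb ions and water, normally live on the oxidation of butyrate in mitochondria.

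Macrophage transcripts were a small part of these preparations, and transcripts of colonocytes were the larger part. The 17 macrophage markers listed, among them Adgre1, Csf1r, C1qa and Lyz2, summed to 22.8, 19.9 and 44.1 CPM (counts scaled to equal library totals) of nuclear counts in the NN libraries and to 173, 122 and 153 in the NP libraries. The sum over 19 colonocyte genes, which include Car1 (a carbonic anhydrase) and Krt8 (a keratin), was 45412, 42969 and 53336 against 40920, 43758 and 34585 on the same scale. Adgre1, which encodes the F4/80 antigen, held 3 counts over the 3 NN libraries. The defining markers of macrophages were thus far below those of colonocytes, which goes against the label, and the results below are those of mixed colon RNA. In such bulk RNA, fewer cells of a type and less RNA per cell cannot be told apart.

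Depth was 29194744 to 33930200 counts in NN and 32505339 to 35952405 in NP. Mitochondrial transcripts took 43.8 ± 5.93% of counts in NN and 37.7 ± 4.76% in NP (SD, n = 3 each; exact two-sided permutation test, p = 0.300, where 0.1 is the smallest possible). NN replicate 2 stood apart, with 10075 genes at 10 or more counts beside 12383 and 13000 in the other NN libraries and 13612 to 14579 in NP. Its correlation with the other NN libraries across genes (Pearson, log2 scale) was 0.812 and 0.813, beside 0.922 to 0.936 among the NP libraries. Sex-linked transcripts also moved with the groups. Xist, the RNA of the inactive X chromosome, held 2048, 1100 and 1 counts in NN and 7, 0 and 1 in NP, and 4 Y-linked genes summed to 3, 70 and 2045 counts in NN and 2397, 2973 and 1689 in NP. Sex was therefore not balanced, and the part of either property in the results was not tested beyond the fits given beside them.

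**Figure D1:**
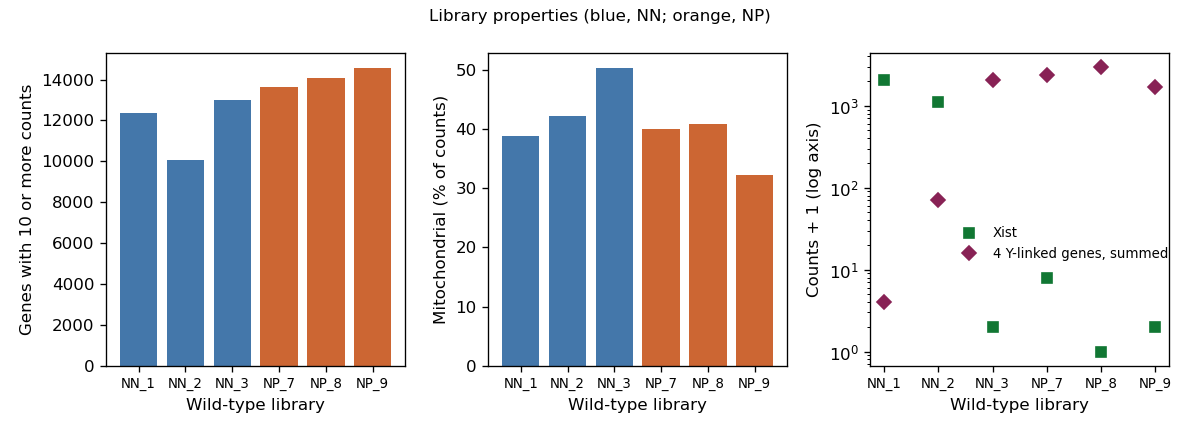
Properties of the 6 wild-type libraries: genes with 10 or more counts (left), mitochondrial transcripts as a percentage of counts (middle), and counts of Xist and of 4 summed Y-linked genes plus 1 on a log axis (right). NN replicate 2 has the fewest genes (10075), and NN replicates 1 and 2 are the libraries with high Xist.

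**Figure D2:**
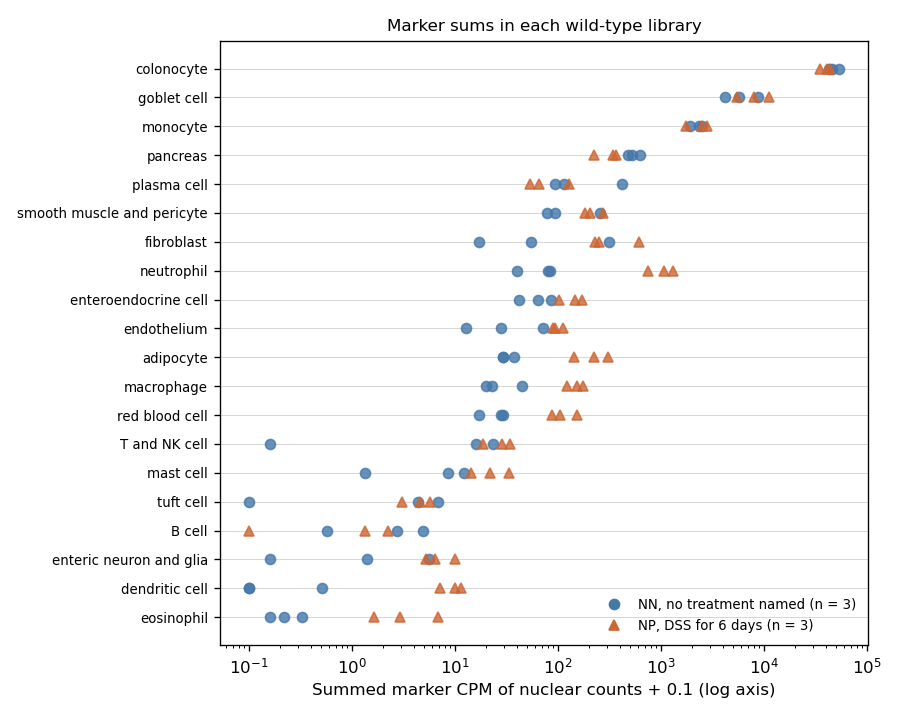
Summed CPM of nuclear counts (plus 0.1, log axis) for 20 lists of cell type markers, 1 point per library. The colonocyte sums are the highest in both groups, and the neutrophil sums of the NP libraries (755 to 1304) lie above those of the NN libraries (40.0 to 83.9). The monocyte sums overlap, and 1 gene, Plac8, gave 96.3% of their counts.

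After DSS, 42 genes changed, which is 0.311% of the genes tested. Of these, 35 rose (0.259%) and 7 fell (0.0518%). Of the 42, 10 passed the low-count filter through the NP libraries alone. Over all genes tested, 487 passed it in that way and 3 through the NN libraries alone. The split by direction was thus in part set by the filter. Of the gene lists used, that of neutrophil markers held 6 of the genes that rose (12 tested). Those of inflammatory cytokines (15 tested), antimicrobial genes (18 tested) and acute phase genes (12 tested) held 2 each. The lists of macrophage markers, adipocyte markers, CXC chemokines, other chemokines and cytokine receptors held 1 each. So did those of epithelial oxidases, MHC class II, mucus genes, matrix proteases and complement. Some genes belong to more than 1 list. The genes that fell were Ang4, Mptx1, Mptx2, Tppp3, Dio1, Crip1 and Guca2a, among them secreted products of the epithelium. Values below are CPM of the counts in the tested genes after TMM scaling, and a change is the log2 fold change of NP over NN with its standard error (SE), called at a Benjamini-Hochberg adjusted p under 0.05 in edgeR's quasi-likelihood test. For all 42 genes the NP values lay wholly outside the NN values, a separation that 12.6% of tested genes showed upward and 7.82% downward. At an unadjusted p under 0.05 there were 865 genes higher and 605 lower (6.40% and 4.48%), where chance alone gives about 676 in all. The median log2 fold change of all genes tested was 0.11.

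The number of calls moved when single libraries were left out and when a term for high Xist was added, while the direction of the 42 genes did not. That term marks 2 of the 3 NN libraries and leaves fewer degrees of freedom, so the cause of the loss of calls was not tested. Of the calls, 83.3% were higher, beside 66.1% of the 451 calls of DESeq2 and 73.0% of the 137 made with no filter. Without NN replicate 2, 126 genes were higher and 17 lower, and all 42 genes were among them. Leaving out another single library gave 5 to 22 higher and 1 to 6 lower genes. S100a8, S100a9, Il1b, Acod1 and Ang4 stayed past the threshold in all 6 such fits. With a term for the libraries high in Xist, S100a8 and S100a9 were called (adjusted p = 0.0433 for both) and the other 40 genes were not, although all 42 kept their sign. Of the genes that lost their call, some had a log2 fold change under this term close to that without it. Examples were Acod1 (6.80 beside 6.48), Hp (5.51 beside 5.17), Ang4 (-4.71 beside -4.85), Dio1 (-2.26 beside -2.29) and Guca2a (-1.73 beside -1.74). Others moved further, up in Csf3 (11.40 beside 8.40), Sis (10.73 beside 7.73) and Clec4e (6.62 beside 4.88). Mmp3 (7.76 beside 9.02) and Il1b (4.81 beside 5.64) moved down. These genes were chosen after their values were seen.

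**Figure D3:**
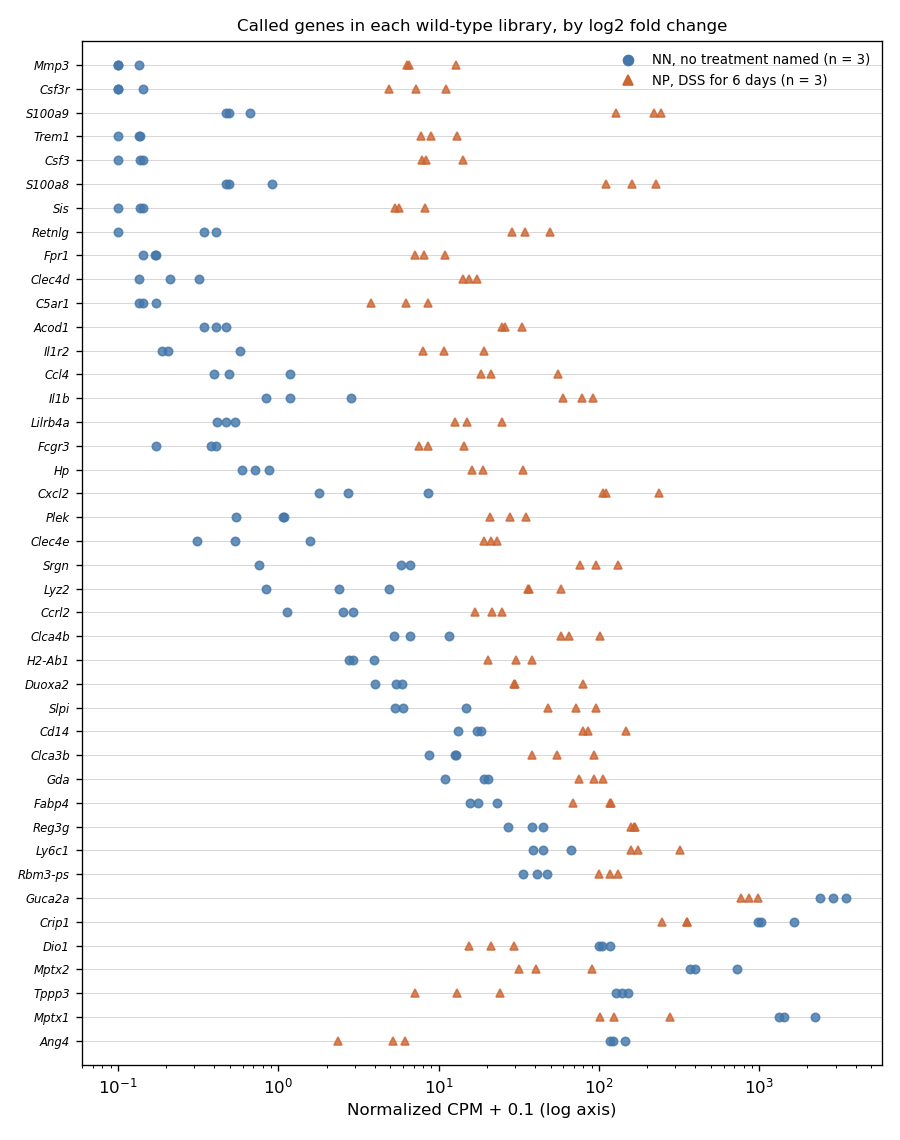
Normalised CPM plus 0.1 (log axis) of the 42 called genes, 1 point per wild-type library, ordered by log2 fold change. No point of one group falls among those of the other for any of these genes. S100a9 spans 0.370 to 0.562 CPM in NN and 128 to 245 in NP, and Ang4 spans 118 to 146 in NN and 2.27 to 6.07 in NP.

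The promoters of 6 of these genes are shown as examples: neutrophil products (S100a9, Retnlg), a chemokine (Cxcl2), an epithelial lectin (Reg3g) and epithelial products that fell (Ang4, Guca2a). Each line is the 250 bases before the transcription start on the strand of the gene, from RefSeq on GRCm38, and capitals mark the motif named after the sequences.
S100a9 (chr3:90695722-90695971, minus strand): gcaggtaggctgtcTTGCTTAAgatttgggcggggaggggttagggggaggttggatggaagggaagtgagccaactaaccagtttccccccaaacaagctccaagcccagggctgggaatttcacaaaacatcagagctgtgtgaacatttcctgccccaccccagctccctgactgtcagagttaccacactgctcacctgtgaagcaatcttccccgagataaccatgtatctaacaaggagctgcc
Retnlg (chr16:48872358-48872607, plus strand): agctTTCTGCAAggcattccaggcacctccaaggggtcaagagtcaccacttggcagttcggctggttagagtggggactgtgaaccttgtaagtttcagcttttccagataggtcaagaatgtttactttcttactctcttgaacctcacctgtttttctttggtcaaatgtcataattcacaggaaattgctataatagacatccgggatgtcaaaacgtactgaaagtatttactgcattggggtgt
Cxcl2 (chr5:90903649-90903898, plus strand): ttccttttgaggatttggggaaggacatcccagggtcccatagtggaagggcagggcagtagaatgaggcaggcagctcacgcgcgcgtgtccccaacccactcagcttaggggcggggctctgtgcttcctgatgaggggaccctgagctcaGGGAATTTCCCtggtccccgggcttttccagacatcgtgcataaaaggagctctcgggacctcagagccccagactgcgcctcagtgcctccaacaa
Reg3g (chr6:78468875-78469124, minus strand): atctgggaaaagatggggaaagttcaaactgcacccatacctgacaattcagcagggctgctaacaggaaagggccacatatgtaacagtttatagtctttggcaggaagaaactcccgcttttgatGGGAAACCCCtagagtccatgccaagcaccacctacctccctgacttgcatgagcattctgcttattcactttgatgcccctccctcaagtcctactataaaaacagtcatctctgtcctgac
Ang4 (chr14:51773591-51773840, minus strand): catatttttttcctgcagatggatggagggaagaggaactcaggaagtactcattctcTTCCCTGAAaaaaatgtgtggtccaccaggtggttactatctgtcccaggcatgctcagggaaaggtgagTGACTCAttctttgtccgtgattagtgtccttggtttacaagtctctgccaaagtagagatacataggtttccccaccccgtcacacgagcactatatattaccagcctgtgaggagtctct
Guca2a (chr4:119637482-119637731, plus strand): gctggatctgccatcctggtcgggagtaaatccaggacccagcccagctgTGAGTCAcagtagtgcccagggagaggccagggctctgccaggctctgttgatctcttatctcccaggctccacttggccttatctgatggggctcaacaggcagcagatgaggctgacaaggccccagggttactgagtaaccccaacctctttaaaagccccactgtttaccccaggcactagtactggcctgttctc
The capitals mark TTGCNNAA, the C/EBP motif, 236 to 229 bases before the start of S100a9 and 246 to 239 bases before that of Retnlg (as its reverse complement). They mark NF-kB consensus matches, 97 to 87 bases before the start of Cxcl2 (a pair of overlapping matches) and 123 to 114 before that of Reg3g. In Ang4 they mark TTCNNNGAA, the STAT motif, 192 to 184 bases before the start and TGANTCA, the AP-1 motif, 122 to 116 before it. In Guca2a they mark TGANTCA 200 to 194 bases before the start. Both strands were searched in a window of the 250 bases before each start. Of the 35 higher genes 27, and of the 7 lower genes 6, had such a window in the RefSeq table. The C/EBP motif was found for 7 of the 27 higher genes (25.9%) beside 9.22% of all tested genes with a window, and the NF-kB consensus for 5 (18.5%) beside 10.4%. The TATA box motif TATAAA was found for 12 of the 27 (44.4%) beside 8.64%, TGANTCA for 3 (11.1%) beside 6.02%, and TTCNNNGAA for 2 (7.41%) beside 7.28%. Among the 6 lower genes TGANTCA was found for 2, and TTCNNNGAA and TATAAA for 1 each. The genes shown do not stand for their groups. S100a8, Csf3r, Trem1 and Il1r2, also called neutrophil markers, had no TTGCNNAA match, and Ang4 and Guca2a were the lower genes with TGANTCA. The motifs were chosen after the called genes were seen, and a match describes the letters only.

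S100a9 and S100a8 encode the subunits of calprotectin, the metal-binding protein that fills the neutrophil cytosol. S100a9 (NCBI gene 20202, chr3:90692630-90695721 on GRCm38) held 0.370, 0.394 and 0.562 CPM in NN and 222, 128 and 245 in NP, a rise of 8.79 ± 0.41 on the log2 scale (SE; adjusted p = 3.56e-05). S100a8 (gene 20201, chr3:90669071-90670034) held 0.370, 0.394 and 0.808 CPM in NN and 161, 111 and 227 in NP (log2 fold change 8.28 ± 0.47, adjusted p = 1.00e-04). The genes lie 22596 bases apart, and in both the lowest NP library was replicate 8 and the highest replicate 9. Their adjusted p stayed under the threshold in all 13 alternatives, from 1.34e-102 to 0.0433 for S100a9. Retnlg (gene 245195, chr16:48872608-48874498), a resistin-like hormone of myeloid cells, held 0, 0.307 and 0.246 CPM in NN and 49.6, 28.6 and 34.5 in NP (log2 fold change 7.67 ± 0.77, adjusted p = 0.00512). It lost its call without NP replicate 7 or NP replicate 9, with an adjusted p of up to 0.0544.

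Receptors of the neutrophil surface rose with them. Csf3r encodes the receptor of the granulocyte growth factor G-CSF, and Csf3 the factor itself. Csf3r held 1 count over the 3 NN libraries and 973 over the NP libraries, where its level was 7.14, 4.82 and 11.0 CPM. The ratio of its summed normalised counts was 616, with a 95% counting interval of 110 to 24336 that covers counting error only. Csf3 held 2 counts against 1283, a ratio of 406 (112 to 3355), with 8.23, 7.74 and 14.1 CPM in NP. Trem1, an activating receptor, held 2 counts against 1247, a ratio of 394 (109 to 3261), with 8.85, 7.64 and 13 CPM in NP. Ligand and receptor were thus both close to 0 in every NN library and at several CPM in every NP library. Il1r2, a decoy receptor that binds interleukin 1 without signalling, held 0.481, 0.0876 and 0.105 CPM in NN and 19.1, 10.7 and 7.93 in NP (5.78 ± 0.91, adjusted p = 0.0386). Without any 1 of 5 libraries (NN replicates 1 and 3 and the 3 NP replicates) the calls of Csf3r, Trem1 and Il1r2 were lost, with adjusted p of up to 0.233, 0.150 and 0.404. That of Csf3 was lost without NN replicate 1 or any NP replicate (up to 0.160).

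The 16 neutrophil markers listed summed to 83.9, 79.2 and 40.0 CPM of nuclear counts in NN and to 1061, 755 and 1304 in NP, so that the groups did not overlap (log2 difference 3.98; exact two-sided permutation test over 20 marker lists, p = 0.1, the smallest possible, adjusted p = 0.200). Ly6g alone made 96.5% of the NN counts of these markers and 17.6% of the NP counts. It held 54.0, 57.6 and 21.8 CPM in NN and 128, 80.8 and 87.4 in NP (1.15 ± 0.37, adjusted p = 0.263), and it belongs to a family of near-identical Ly6 genes whose reads can be divided uncertainly. Of the 16 markers, 12 passed the low-count filter, 8 of them through the NP libraries alone, and 6 were called. Mpo, Elane, Ltf and Camp, granule genes of immature neutrophils, did not pass it, with 4, 0, 91 and 7 counts over the NP libraries. The 12 that passed include Ngp, another granule gene. In all 12 the NP values lay wholly above the NN values, beside 12.6% of all tested genes.

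Several called genes encode receptors of myeloid cells, and they are set together here after their calls were seen. The list of Toll-like and NOD receptors and inflammasome genes had 0 calls in edgeR among 25 tested, with 5 higher and 4 lower at an unadjusted p under 0.05 and a median of 0.24. Of all tested genes, 6.40% were higher and 4.48% lower at that p. The alternatives called 0 to 2 of the list higher and 0 to 4 lower. Fpr1, the receptor of bacterial formyl peptides, held 0.0739, 0.0438 and 0.0703 CPM in NN and 10.8, 8.03 and 6.98 in NP (7.01 ± 0.91, adjusted p = 0.0131). The C-type lectin genes Clec4d and Clec4e are neighbours, 6521 bases apart on chromosome 6, and sense mycobacterial glycolipids. Clec4d held 0.111, 0.219 and 0.0351 CPM in NN and 14.1, 15.4 and 17.2 in NP (6.99 ± 0.77, adjusted p = 0.00792). Clec4e held 1.48, 0.438 and 0.211 CPM against 23, 19 and 21.1 (4.88 ± 0.73, adjusted p = 0.0303). All 3 receptors were under 2 CPM in every NN library, with Clec4e highest in replicate 1, and above 6 CPM in every NP library. C5ar1, the receptor of the complement fragment C5a, held 0.0739, 0.0438 and 0.0351 CPM against 6.19, 3.71 and 8.55 (6.81 ± 1.09, adjusted p = 0.0408). Cd14, the co-receptor of endotoxin, was already present in NN at 13.1, 17.3 and 18.4 CPM and stood at 85.5, 79.0 and 147 in NP (2.67 ± 0.31, adjusted p = 0.0104). Fcgr3, an activating receptor of IgG, rose by 5.50 ± 0.87 and Lilrb4a, an inhibitory receptor of myeloid cells, by 5.52 ± 0.59 (adjusted p = 0.0386 and 0.00667). Each of these 7 calls was lost when some single library was left out, with adjusted p of up to 0.404 for Fcgr3, 0.313 for C5ar1, 0.217 for Clec4e, 0.216 for Fpr1, 0.126 for Lilrb4a, 0.103 for Clec4d and 0.0662 for Cd14.

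Among 25 listed inflammatory cytokines, 15 passed the filter, 4 of them through the NP libraries alone, and Il1b and Csf3 were called. Il1b (gene 16176, chr2:129364569-129371164), the main secreted form of interleukin 1, held 0.739, 1.09 and 2.74 CPM in NN and 78.6, 92.1 and 60.0 in NP (5.64 ± 0.52, adjusted p = 0.00303). Acod1 (gene 16365, chr14:103047012-103056573), which makes the metabolite itaconate in activated macrophages and neutrophils, held 0.370, 0.307 and 0.246 CPM against 24.6, 25.7 and 33.2 (6.48 ± 0.46, adjusted p = 4.93e-04). In neither gene did any NP library come near the NN range. With the term for high Xist the adjusted p of both was 0.0888, within ranges from 2.94e-32 to 0.0888 for Il1b and from 2.62e-30 to 0.0888 for Acod1 over the alternatives.

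Other cytokines did not pass the test. Il6 held 2.14, 0 and 6.08 CPM in NN and 20.2, 14.4 and 19.7 in NP (2.71 ± 1.15, adjusted p = 0.426). Tnf averaged 11.0 ± 6.05 CPM against 33.2 ± 6.20 (SD, n = 3 each; 1.60 ± 0.47, adjusted p = 0.233). Il10, which restrains inflammation, held 10 counts over the NN libraries and averaged 5.45 ± 2.13 CPM in NP (5.34 ± 1.13, adjusted p = 0.131). The groups did not overlap in any of the 3. Il18, a cytokine that colonocytes make at rest, was the one listed cytokine whose NP values all lay below its NN values, at 170, 145 and 196 against 282, 372 and 223 CPM (-0.78 ± 0.25, adjusted p = 0.263).

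Of the neutrophil-attracting CXC chemokines, Cxcl2 was the one called. Cxcl2 (gene 20310, chr5:90903899-90905938) held 8.54, 2.63 and 1.69 CPM in NN and 106, 111 and 236 in NP, a rise of 5.14 ± 0.65 (adjusted p = 0.0127). Its call was lost without NN replicate 3 or any NP replicate, with an adjusted p of up to 0.103. Cxcl1, its close relative, overlapped between groups at 59.1, 39.1 and 15.5 against 52.3, 66.2 and 112 CPM (1.02 ± 0.46, adjusted p = 0.472). Cxcl5, an epithelial member, averaged 5.91 ± 5.8 against 7.72 ± 5.03 CPM (adjusted p = 0.956). Cxcl3, another close relative, held 4.95, 0.394 and 0.422 against 17, 21.3 and 64.1 CPM without overlap (4.14 ± 1.01, adjusted p = 0.185). Differences between the ligands were not tested.

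Of 25 other chemokines, 20 passed the filter and Ccl4 was called. Ccl4, a chemokine of activated myeloid cells, held 0.296, 0.394 and 1.09 CPM in NN and 21.2, 18.4 and 55.8 in NP (5.72 ± 0.70, adjusted p = 0.0110; up to 0.125 when 1 library was left out, with the call lost without NN replicate 1, NP replicate 7 or NP replicate 9). Ccl2, which draws monocytes through CCR2, averaged 0.436 ± 0.718 CPM against 17.3 ± 4.98 (5.27 ± 1.29, adjusted p = 0.185). Ccl20, the epithelial ligand of CCR6, averaged 3.17 ± 2.30 against 27.5 ± 2.09 CPM (3.12 ± 0.53, adjusted p = 0.0598). Both missed the threshold with groups that did not overlap. The homeostatic epithelial chemokines Ccl25 and Ccl28 had overlapping values (log2 fold changes -1.26 ± 0.84 and -0.06 ± 0.30). The interferon-induced Cxcl9 and Cxcl10 averaged 3.14 ± 1.56 and 14.5 ± 3.09 CPM in NP against 1.8 ± 1.90 and 5.66 ± 2.49 in NN (adjusted p = 0.928 and 0.331). Ccrl2, a receptor that binds chemerin, rose by 3.31 ± 0.51 (adjusted p = 0.0354; up to 0.258 with 1 library left out).

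Genes of resident and arriving mononuclear cells were at low levels. Of 17 macrophage markers, 13 passed the filter, 6 of them through the NP libraries alone, and Lyz2 was the one called. Lyz2, the lysozyme of macrophages, monocytes and neutrophils, held 4.81, 0.744 and 2.28 CPM in NN and 58.0, 36.7 and 36.0 in NP (4.05 ± 0.61, adjusted p = 0.0303), and it gave 48.9% of the macrophage marker sum. Its call was lost without NN replicate 3 or any NP replicate (adjusted p of up to 0.211). The defining markers other than Lyz2 were at low levels. Adgre1 held 1.42, 2.39 and 1.03 CPM in NP, and its ratio to the 3 counts of NN was 41.5 (95% counting interval 14 to 203). Csf1r, the receptor that macrophages need to live, held 0, 4.42 and 0.0351 CPM in NN and 1.74, 0.627 and 3.59 in NP, with its highest value in NN replicate 2. Cd68 averaged 1.11 ± 0.886 against 4.64 ± 1.46 CPM and C1qa 1.26 ± 1.15 against 4.45 ± 1.23. None of these 4 passed the test (adjusted p = 0.272, 0.979, 0.592 and 0.653). All 13 tested markers had a positive log2 fold change, with a median of 4.05 that was in part set by the filter. In 9 of the 13 the NP values all lay above the NN values, where 12.6% of all tested genes did so. At an unadjusted p under 0.05, 6 were higher and 0 lower, beside 6.40% and 4.48% of all tested genes. The alternatives called 0 to 6 of the list higher.

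Among 10 monocyte markers tested, 5 of which passed the filter through the NP libraries alone, edgeR called 0, with 7 higher and 0 lower at an unadjusted p under 0.05. In 8 of the 10 the NP values all lay above the NN values, where 12.6% of all tested genes did so. The median log2 fold change was 4.53, in part set by the filter. DESeq2, the fit of 11 libraries and the fit of all 17 libraries each called 6 of the 10 higher. Ly6c2 averaged 5.76 ± 5.08 CPM in NN and 39.9 ± 15.7 in NP (2.79 ± 0.81, adjusted p = 0.233). Ccr2, the receptor that brings monocytes from the marrow, held 0 counts in NN and 77 in NP, at least 16.2-fold higher taking 3 counts in the whole NN group as the floor. Plac8, which gave 96.3% of the monocyte marker sum, overlapped between groups at 1518, 1854 and 1117 against 1497, 831 and 1176 CPM. Ly6c1, a gene near-identical to Ly6c2 with which it can share reads, rose by 2.13 ± 0.34 (38.5, 66.5 and 44.5 against 319, 159 and 175 CPM, adjusted p = 0.0386; up to 0.206 with 1 library left out).

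Presentation by MHC class II molecules, which load bacterial peptides for CD4 T cells, showed 1 called gene among 8 tested of 11 listed. H2-Ab1, a chain of the I-A molecule, held 2.66, 3.85 and 2.81 CPM in NN and 38.1, 30.3 and 20.2 in NP (3.25 ± 0.40, adjusted p = 0.0110). Its partner chain H2-Aa held 4.58, 1.01 and 11.6 against 158, 61.4 and 52.1 CPM (3.97 ± 0.79, adjusted p = 0.107). The invariant chain Cd74 averaged 6.97 ± 5.21 against 54.9 ± 25.2 CPM (2.97 ± 0.56, adjusted p = 0.0860). In 6 of the 8 the NP values all lay above the NN values, where 12.6% of all tested genes did so. NP replicate 7 was the highest library for the 3 genes named. The call of H2-Ab1 was lost without NN replicate 1, NN replicate 3, NP replicate 7 or NP replicate 8 (adjusted p of up to 0.136).

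Complement showed 1 called gene, C5ar1, among 19 tested of 21 listed. Of the 19, 5 passed the filter through the NP libraries alone. All 19 had a positive log2 fold change, with a median of 2.06 that was in part set by the filter. In 11 the NP values all lay above the NN values, where 12.6% of all tested genes did so. At an unadjusted p under 0.05, 7 were higher and 0 lower, beside 6.40% and 4.48% of all tested genes. The alternatives called 0 to 6 of the list higher. C3, the central component, held 0.407, 0.0438 and 9.91 CPM in NN and 16.6, 14.2 and 47.4 in NP without overlap (2.91 ± 1.30, adjusted p = 0.464). Cfb, a partner of C3 in the alternative pathway, averaged 26.7 ± 1.14 against 32.6 ± 10.7 CPM (0.29 ± 0.30, adjusted p = 0.879).

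The secreted defence genes of the epithelium moved in opposite directions. Of 18 antimicrobial genes tested (21 listed), Reg3g and Slpi rose and Ang4 fell. Reg3g (gene 19695, chr6:78466269-78468874), a lectin that kills Gram-positive bacteria, held 38.1, 44.7 and 27.1 CPM in NN and 158, 166 and 169 in NP (2.17 ± 0.25, adjusted p = 0.00958). Every NP library was above every NN library, and the NP libraries were close to each other. Slpi, a protease inhibitor that also kills bacteria, held 5.25, 14.7 and 5.94 CPM against 72.0, 48.3 and 96.0 (3.07 ± 0.46, adjusted p = 0.0303). Reg3b, a lectin against Gram-negative bacteria, was at 192, 428 and 55.8 CPM in NN and 3169, 2221 and 2178 in NP, and missed the threshold (3.49 ± 0.63, adjusted p = 0.0764). The calls were lost for Reg3g without NN replicate 1 or any NP replicate (adjusted p of up to 0.0662) and for Slpi without any 1 library other than NN replicate 2 (up to 0.160).

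Ang4 (gene 219033, chr14:51763892-51773590), a secreted ribonuclease of the angiogenin family with activity against gut bacteria, fell furthest of all called genes. It held 146, 123 and 118 CPM in NN and 5.10, 2.27 and 6.07 in NP (-4.85 ± 0.39, adjusted p = 0.00138; range over the alternatives 5.68e-37 to 0.0679). Retnlb, a goblet cell product with bactericidal activity, averaged 81.2 ± 62.2 CPM in NN and 15.2 ± 4.53 in NP without overlap (-2.41 ± 0.51, adjusted p = 0.131). Abundant barrier proteins include Lypd8, which binds flagella, and Zg16, a lectin of the mucus. Lypd8 averaged 14124 ± 3309 against 9914 ± 5310 CPM and Zg16 1377 ± 872 against 2278 ± 1168, with overlap in both (adjusted p = 0.806 and 0.753).

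Of 12 acute phase and endotoxin-binding genes tested, Hp and Cd14 rose. Hp, haptoglobin, which binds free haemoglobin, held 0.776, 0.613 and 0.492 CPM in NN and 16.0, 18.8 and 33.3 in NP (5.17 ± 0.53, adjusted p = 0.00546; lost without NP replicate 9, adjusted p = 0.0957). Lcn2, which withholds iron carriers from bacteria, averaged 2.54 ± 2.55 against 36.3 ± 10.6 CPM (3.85 ± 0.69, adjusted p = 0.0746). Saa3 averaged 17.7 ± 2.98 against 89.2 ± 54.1 CPM (2.33 ± 0.41, adjusted p = 0.0652). Saa1, the more abundant serum amyloid, overlapped between groups at 297, 821 and 434 against 978, 508 and 1045 CPM (adjusted p = 0.624). All 12 had a positive log2 fold change, with a median of 2.5, and in 8 the groups did not overlap. For 12.6% of all tested genes the NP values lay wholly above the NN values.

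The epithelial oxidases release hydrogen peroxide at the surface of the colon. Duoxa2, the maturation factor of the oxidase Duox2, held 5.8, 3.90 and 5.34 CPM in NN and 30.0, 29.4 and 79.0 in NP (3.20 ± 0.46, adjusted p = 0.0252; up to 0.125 with 1 library left out). Duox2 itself held 1.18, 8.06 and 1.05 against 7.78, 6.58 and 19.1 CPM (1.70 ± 0.88, adjusted p = 0.565), with NN replicate 2 inside the NP range. Nos2, the inducible nitric oxide synthase, held 7 counts over the NN libraries and 1.44, 1.47 and 8.22 CPM in NP (5.23 ± 1.63, adjusted p = 0.253). Nox1 and Noxo1 averaged 12.1 ± 12.1 and 85.0 ± 7.32 CPM in NP against 2.36 ± 2.06 and 67.2 ± 11.7 in NN (adjusted p = 0.550 and 0.708).

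Other called genes of the epithelium were Sis, Clca3b and Clca4b. Sis, the sucrase-isomaltase of the brush border, held 2 counts over the NN libraries and 8.08, 5.26 and 5.58 CPM in NP, a ratio of 241 (95% counting interval 66.5 to 1994). Clca4b, a secreted protein of the calcium-activated chloride channel regulator family, held 5.18, 6.52 and 11.5 CPM against 102, 64.8 and 58.1 (3.28 ± 0.39, adjusted p = 0.0104). Clca3b, 61619 bases from it on chromosome 3, held 12.5, 8.58 and 12.7 CPM against 38.2, 54.6 and 92.8 (2.46 ± 0.37, adjusted p = 0.0303). Another member, the abundant goblet cell product Clca1, was at 979, 527 and 469 CPM in NN and 496, 272 and 211 in NP (-1.01 ± 0.39, adjusted p = 0.358), so the named members had changes of opposite sign. Their calls were lost in leave-one-out fits, with adjusted p of up to 0.385 for Sis, 0.150 for Clca3b and 0.0628 for Clca4b.

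Mmp3 was the called gene among 22 matrix proteases and inhibitors tested, 8 of which passed the filter through the NP libraries alone. Mmp3, stromelysin, which cleaves matrix proteins and is made by activated fibroblasts, held 1 count over the NN libraries and 12.7, 6.41 and 6.26 CPM in NP, a ratio of 631 (95% counting interval 113 to 24961). Its call was lost without any 1 library other than NN replicate 2 (adjusted p of up to 0.286). Mmp10 and Adam8 held 0 counts in NN and were at least 36.5-fold and 135-fold higher in NP, with 3 counts in the NN group as the floor (adjusted p = 0.233 and 0.0986). Mmp8, the collagenase of neutrophils, averaged 0.0795 ± 0.0479 against 5.85 ± 3.28 CPM and Mmp13 0.0801 ± 0.0484 against 4.44 ± 2.05 (adjusted p = 0.0860 and 0.131). The inhibitors Timp1 and Serpina3n averaged 10.9 ± 6.30 and 24.8 ± 7.65 CPM in NP against 0.877 ± 1.37 and 0.694 ± 1.16 in NN (adjusted p = 0.308 and 0.200). Fibroblast markers summed to 16.8, 54.5 and 309 CPM of nuclear counts in NN and 252, 227 and 612 in NP. Their part in the rise of Mmp3 was not tested.

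The remaining genes that rose were Srgn, Plek, Fabp4, Gda and Rbm3-ps. Srgn, serglycin, the proteoglycan of blood cell granules, held 6.51, 0.657 and 5.69 CPM in NN and 95.4, 75.6 and 132 in NP (4.55 ± 0.69, adjusted p = 0.0303). Plek, a protein kinase C substrate of platelets and leukocytes, held 0.444, 0.963 and 0.984 against 34.8, 27.7 and 20.9 CPM (5.12 ± 0.49, adjusted p = 0.00394). Fabp4, a fatty acid carrier of adipocytes, macrophages and endothelium, held 23, 17.6 and 15.7 against 119, 68.9 and 118 CPM (2.44 ± 0.30, adjusted p = 0.0110). In these 3 genes every NP library was above every NN library, and Fabp4 was already present in NN. Gda, guanine deaminase, rose by 2.45 ± 0.30 (adjusted p = 0.0110). Rbm3-ps, which is named as a pseudogene of Rbm3 and can share its reads, rose by 1.51 ± 0.23 (adjusted p = 0.0362). Left-out libraries ended these 5 calls, with adjusted p of up to 0.0529 for Plek, without NP replicate 7, and up to 0.0793 for Gda, 0.0957 for Fabp4, 0.162 for Srgn and 0.216 for Rbm3-ps.

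The genes that fell besides Ang4 were well expressed in NN. Mptx1 (gene 66289, chr1:174330518-174332877) and Mptx2 (gene 100504232, chr1:173274461-173277756) encode mucosal pentraxins and are close paralogs, so the division of reads between them is uncertain. Mptx1 held 2217, 1430 and 1323 CPM in NN and 279, 101 and 125 in NP (-3.3 ± 0.43, adjusted p = 0.0131). Mptx2 held 726, 398 and 368 CPM against 90.0, 31.6 and 40.4 (-3.20 ± 0.45, adjusted p = 0.0231). In both, replicate 1 was the highest NN library and replicate 7 the highest NP library. Tppp3, a tubulin-bundling protein, held 140, 127 and 151 against 13, 7.04 and 24.2 CPM (-3.24 ± 0.42, adjusted p = 0.0131). Dio1, the deiodinase that activates thyroid hormone, held 99.8, 118 and 105 against 21.1, 15.4 and 29.5 CPM (-2.29 ± 0.28, adjusted p = 0.0110). Crip1, a zinc-binding LIM protein abundant in the intestine, held 979, 1649 and 1033 against 352, 247 and 354 CPM (-1.94 ± 0.29, adjusted p = 0.0303). In each of these 5 genes every NP library was below the lowest NN library.

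Guca2a (gene 14915, chr4:119637732-119639465) encodes guanylin, the peptide that opens chloride secretion through guanylate cyclase C, and was the called member of both the colonocyte and the ion transport lists. It held 2386, 3459 and 2895 CPM in NN and 978, 774 and 866 in NP (-1.74 ± 0.26, adjusted p = 0.0299). Single libraries decided the calls of these 6 genes too, with adjusted p of up to 0.150 for Mptx1, 0.164 for Mptx2, 0.147 for Tppp3, 0.117 for Dio1, 0.251 for Crip1 and 0.317 for Guca2a in leave-one-out fits.

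Most other genes of colonocyte transport overlapped between groups. Of 29 tested, Guca2a was called, and the median log2 fold change was -0.02. The chloride exchanger Slc26a3 averaged 264 ± 63.3 against 244 ± 128 CPM and the chloride channel Cftr 29.8 ± 6.69 against 38.8 ± 5.75. The water channels Aqp8 and Aqp4 averaged 96.7 ± 38.7 and 288 ± 98.6 CPM in NN and 91.3 ± 30.0 and 281 ± 87.7 in NP. The carbonic anhydrases Car1 and Car4 averaged 7930 ± 1397 and 319 ± 83.5 CPM in NN and 6274 ± 1498 and 352 ± 141 in NP. Each of these 6 had an adjusted p above 0.05, from 0.756 (Cftr) to 0.990 (Aqp4). Among the structural colonocyte markers, Krt8 averaged 3674 ± 789 against 2150 ± 158 CPM and Epcam 1660 ± 74.0 against 1324 ± 118, without overlap (adjusted p = 0.289 and 0.719), while Krt20 overlapped (adjusted p = 0.946). Of the 19 colonocyte markers tested, 14 had a negative log2 fold change, with a median of -0.33. In 9 the NP values lay wholly below the NN values, beside 7.82% of all tested genes. At an unadjusted p under 0.05, 6 were lower and 0 higher, beside 4.48% and 6.40% of all tested genes. The alternatives called 0 to 6 of the list lower.

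Mucus genes showed 1 called member, Clca4b, among 18 tested, with a median of -0.03. Muc2, the gel-forming mucin, was at 459, 549 and 434 CPM in NN and 435, 244 and 376 in NP (-0.45 ± 0.26, adjusted p = 0.628). Fcgbp, which crosslinks the mucus, averaged 249 ± 105 against 202 ± 96.7 CPM and Tff3, the trefoil peptide of goblet cells, 538 ± 293 against 576 ± 287 (adjusted p = 0.919 and 0.981). Agr2, the disulfide isomerase of mucin folding, averaged 568 ± 97.7 against 471 ± 90.3 CPM (adjusted p = 0.841). Spdef, the transcription factor of goblet maturation, averaged 18.7 ± 8.77 against 10.2 ± 0.939 CPM without overlap (-0.88 ± 0.41, adjusted p = 0.497). A transmembrane mucin, Muc1, was near 2 CPM in both groups (adjusted p = 0.975).

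**Figure D4:**
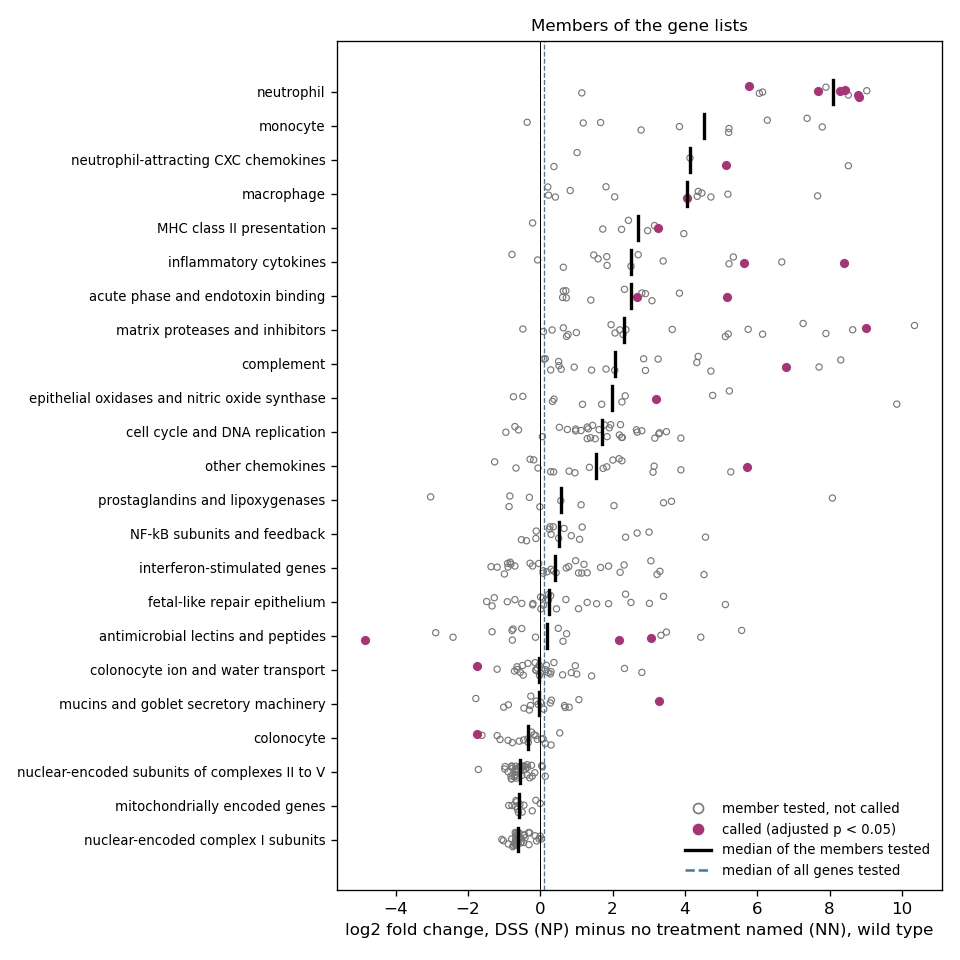
Log2 fold change (NP over NN) of every tested member of 23 gene lists, with called members filled, the median of each list as a bar and the median of all tested genes (0.11) as a dashed line. The points of complex I (median -0.61) and of complexes II to V (-0.56) lie mostly left of the line. For the neutrophil list 8 of the 12 points are genes that passed the low-count filter through the NP libraries alone, so its position was in part set by the filter.

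Subunits of the respiratory chain had mostly negative changes, none of which passed the test. The chain passes electrons from complex I to complex IV and drives the ATP synthase, complex V. All 36 nuclear-encoded complex I subunits listed were tested and 0 were called by edgeR, with a median of -0.61, a range of -1.06 to 0.03 and 34 of 36 below 0, where 43.8% of all tested genes were below 0. At an unadjusted p under 0.05, 20 of the 36 were lower and 0 higher, and for 19 the NP values lay wholly below the NN values. Of all tested genes, 4.48% were lower at that p and 7.82% lay wholly below. DESeq2 and the other alternatives called 0 to 3 of them lower. Ndufa1, an accessory subunit, held 251, 324 and 234 CPM in NN and 155, 94.6 and 138 in NP (-1.06 ± 0.26, adjusted p = 0.180). Ndufs1 and Ndufv1 belong to the catalytic arm. Ndufs1 averaged 77.2 ± 21.2 against 77.3 ± 25.8 CPM (adjusted p = 0.999) and Ndufv1 177 ± 41.0 against 129 ± 2.69 (-0.45 ± 0.23, adjusted p = 0.535).

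Complexes II to V also had mostly negative changes, with a range of -1.71 to 0.14. Of the 38 subunits tested, 35 were below 0, beside 43.8% of all tested genes. Of these 38, edgeR called 0, with 20 lower and 0 higher at an unadjusted p under 0.05. Their median was -0.56, and in 26 the groups did not overlap, all lower in NP. Beside these stand 4.48% of all tested genes lower at that p and 7.82% lower without overlap. Cox4i1 of complex IV held 1379, 2018 and 1204 CPM in NN and 909, 748 and 1000 in NP (-0.79 ± 0.27, adjusted p = 0.289). Uqcrc1 of complex III averaged 158 ± 20.1 against 111 ± 16.9 CPM (-0.51 ± 0.22, adjusted p = 0.441). Sdha of complex II and Atp5a1 of complex V averaged 153 ± 45.9 and 1131 ± 26.5 CPM in NN and 159 ± 22.3 and 1159 ± 202 in NP (adjusted p = 0.978 and 0.986). DESeq2 and the other alternatives called 0 to 7 of the 38 lower.

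NN replicate 2 lay furthest from the NP libraries in these lists. The median deviation of complex I subunits from each gene's mean over the 6 libraries was 0.20, 0.62 and 0.03 in NN and -0.19, -0.47 and -0.21 in NP on the log2 scale, beside 0.04, -0.26 and 0.09 and 0.14, 0.20 and 0.18 for all tested genes. Without that library the median log2 fold change of complex I was -0.37, and with the term for high Xist -0.30. Over 13 alternatives it ran from -0.72 to -0.30 for complex I and from -0.66 to -0.31 for complexes II to V, so the sign of the medians held in each alternative. Most of these changed the libraries or the model rather than the scaling.

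The 13 protein-coding genes of the mitochondrial genome had log2 fold changes of -0.87 to -0.00 with a median of -0.60, and edgeR called 0 (2 lower at an unadjusted p under 0.05). mt-Co1, a core subunit of complex IV, held 150832, 173514 and 223994 CPM in NN and 141170, 134949 and 68381 in NP (-0.67 ± 0.45, adjusted p = 0.722). NP replicate 9 was the lowest library for it. mt-Nd1 of complex I averaged 28034 ± 2629 against 18522 ± 3599 CPM (-0.60 ± 0.32, adjusted p = 0.587), and mt-Cytb and mt-Atp6 had log2 fold changes of -0.63 ± 0.38 and -0.65 ± 0.37 (adjusted p = 0.661 and 0.617).

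**Figure D5:**
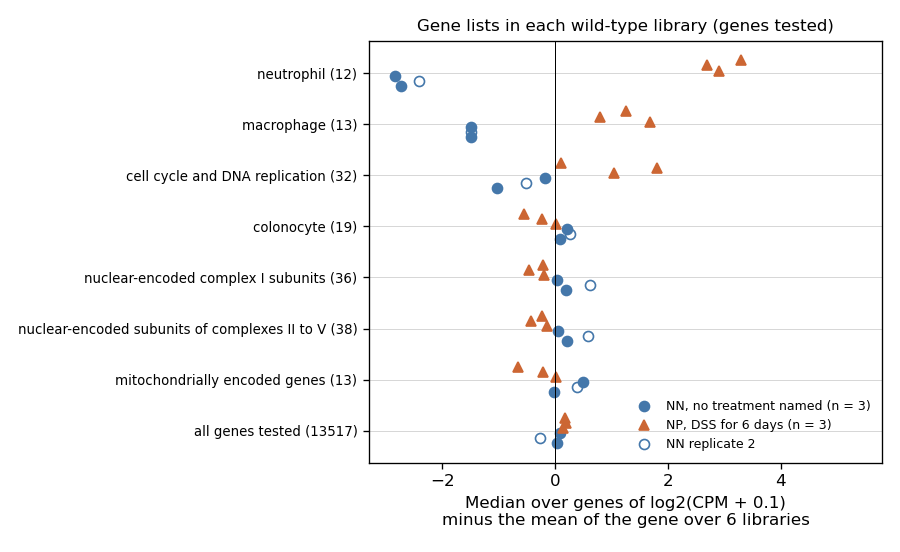
Median over the tested genes of a list of log2(CPM + 0.1) minus the gene's mean over the 6 libraries, 1 point per library, with the number of genes in parentheses and NN replicate 2 as an open circle. NN replicate 2 is the highest library for complex I (0.62), and NP replicate 9 (0.10) is the lowest NP library for the cell cycle list.

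Proliferation genes had positive changes without a call. Of 32 cell cycle genes listed, all were tested, 0 were called by edgeR, and 17 were higher and 1 lower at an unadjusted p under 0.05, with a median of 1.71. At that p, 6.40% of all tested genes were higher and 4.48% lower. Mki67, the antigen Ki-67 of cycling cells, held 4.51, 0 and 5.69 CPM in NN and 23.8, 29.5 and 11.7 in NP (2.66 ± 1.12, adjusted p = 0.425). Top2a, the mitotic topoisomerase, held 1.81, 12.0 and 2.00 against 22, 47.7 and 5.39 CPM (2.25 ± 0.91, adjusted p = 0.393). Ccnb1, mitotic cyclin B1, held 2.99, 1.40 and 4.29 against 21.6, 31.3 and 2.99 CPM (2.68 ± 0.81, adjusted p = 0.237). NP replicate 8 was the highest and NP replicate 9 the lowest of the NP libraries in all 3, and in the last 2 replicate 9 fell inside the NN range. The replication genes Pcna and Mcm2 averaged 78.6 ± 3.47 and 1.70 ± 0.900 CPM in NN and 132 ± 19.6 and 5.88 ± 0.703 in NP (adjusted p = 0.225 and 0.467). Cdkn1a, which encodes the cell cycle inhibitor p21, averaged 147 ± 48.9 against 76.0 ± 10.3 CPM (-0.95 ± 0.27, adjusted p = 0.233). The alternatives called 0 to 8 genes of this list higher.

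Among genes of a fetal-like repairing epithelium, 0 of 26 tested were called by edgeR, with 4 higher and 4 lower at an unadjusted p under 0.05, and the members went in both directions. The shares over all tested genes at that p were 6.40% higher and 4.48% lower. Ly6a, which encodes Sca-1 and marks that state, held 200, 355 and 153 CPM in NN and 1036, 536 and 514 in NP (1.56 ± 0.39, adjusted p = 0.189). Sprr1a averaged 101 ± 47.9 against 40.0 ± 10.2 CPM (-1.33 ± 0.35, adjusted p = 0.207) and Clu, which marks reviving stem cells, 22.3 ± 2.04 against 11.9 ± 4.59 (-0.91 ± 0.36, adjusted p = 0.389). Anxa1, Krt7 and Plaur overlapped between groups.

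Interferon-stimulated and NF-kB feedback genes had 0 calls in edgeR among 32 and 17 tested, with 3 higher and 2 lower and with 3 higher and 0 lower at an unadjusted p under 0.05. Of all tested genes, 6.40% were higher and 4.48% lower at that p, and the interferon counts were close to these shares. Irf1 averaged 87.0 ± 9.32 against 99.1 ± 21.5 CPM, Isg15 13.2 ± 6.73 against 8.13 ± 4.53 and Ifit1 7.15 ± 4.02 against 4.02 ± 3.73, all with overlap. Gbp2, a guanylate-binding protein, held 126 CPM in NP replicate 7 beside 5.95 and 5.64 in the others and 0.0438 to 3.62 in NN (4.53 ± 1.43, adjusted p = 0.259). Zbp1, a sensor of nucleic acids, was at 53.2 CPM in that library beside 10.6 and 14.4 in the others. Ido1, which breaks down tryptophan, was at 10.7 CPM there beside 1.33 and 0.640. For these 3 genes NP replicate 7 stood above the other two. Nfkbia, the inhibitor of NF-kB, averaged 324 ± 104 against 390 ± 91.7 CPM (adjusted p = 0.891), and Tnfaip3, a deubiquitinase that ends its signalling, 33.2 ± 22 against 74.2 ± 2.17 (adjusted p = 0.475). Nfkbiz, Tnip3 and the adhesion molecule Icam1 had log2 fold changes of 0.66 ± 0.30, 1.09 ± 0.49 and 3.01 ± 1.09 (adjusted p = 0.473, 0.467 and 0.321).

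Prostaglandin genes had 0 calls in edgeR among 11 tested, with 4 higher and 2 lower at an unadjusted p under 0.05, beside 6.40% and 4.48% of all tested genes. Ptgs2, the inducible cyclooxygenase, held 1.37, 4.55 and 0.949 CPM in NN and 16.8, 22.1 and 33.9 in NP without overlap (3.41 ± 0.65, adjusted p = 0.0860). Alox5ap, needed for leukotriene synthesis, averaged 0.649 ± 0.991 against 8.11 ± 2.41 CPM (3.63 ± 1.27, adjusted p = 0.298). Hpgd, which breaks prostaglandins down, averaged 186 ± 63.1 against 151 ± 60.6 CPM, and Ptges 0.664 ± 0.662 against 2.74 ± 2.29 (adjusted p = 0.898 and 0.699).

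The response of wild-type mice was compared with that of MCJ-deficient mice by an interaction test on 11 libraries (3 NN and 3 NP wild-type, 2 NN and 3 NP MCJ-deficient). Dnajc15 held 1286, 359 and 1028 counts in NN and 1217, 1457 and 1534 in NP of wild-type mice, where it did not pass the test for DSS (0.05 ± 0.37, adjusted p = 0.988), and 60 to 121 counts in the MCJ-deficient libraries. The response differed for 1 of 15859 genes (0.00631%), with 953 at an unadjusted p under 0.05 where chance gives about 793. That gene was Ccl9, a chemokine of myeloid cells. It held 7.5, 6.90 and 8.05 CPM of all counts in NN and 23.7, 16.2 and 20.5 in NP of wild-type mice, and 2.94 and 3.88 in NN and 63.7, 97.0 and 64.3 in NP of MCJ-deficient mice. The log2 fold change of wild-type mice was 0.99 ± 0.30 and that of the MCJ-deficient ones 4.70 ± 0.41, a difference of -3.71 ± 0.47 (adjusted p = 0.0312). All wild-type NP libraries were below all MCJ-deficient NP libraries. The call was lost in a fit of all 17 libraries (adjusted p = 0.273), without either MCJ-deficient NN library (0.583 and 0.205), without wild-type NP replicate 8 or 9 (0.171 and 0.0733), and without MCJ-deficient NP replicate 20 or 21 (0.146 and 0.0829).

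The genes called in wild type were not shown to respond differently in MCJ-deficient mice. In this fit S100a9 had a log2 fold change of 8.83 ± 0.49 in the wild type and of 8.94 ± 0.60 without MCJ (difference -0.11 ± 0.61, adjusted p = 1.000). Ang4 was at 9.82 and 21.2 CPM in NN and 13.1, 25 and 64.9 in NP of MCJ-deficient mice, with a difference of -6.27 ± 0.94 that missed the threshold (adjusted p = 0.0658). Sex-linked transcripts were unbalanced here as well. Xist held 7176 and 7950 counts in the MCJ-deficient NN libraries and 4, 0 and 3822 in the NP libraries, the last of which also held 1478 counts of Y-linked genes. Their part in the difference of Ccl9 was not tested.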

How the data were processed

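RNA of 6 wild-type colon preparations was compared, with 5 MCJ-deficient libraries added for the last comparison and, in 2 alternative fits, MCJ-deficient or all other libraries. The authors deposited raw counts per gene; per the submitters' processing notes CASAVA 1.8.2, FastQC, Trim Galore, STAR 2.5.4, mm10 and DESeq2 were used, and per the labels the kit was NuGEN Universal Plus mRNA-Seq. The counter, annotation and strand setting are not given in the sources used here, so reads of overlapping or antisense genes may be mixed. Tables were merged by NCBI gene number, and 25275 of 27179 numbers were named from RefSeq and 18 from GENCODE. The 1886 unnamed ones held 1.75 to 7.32% of counts. Counts were filtered with filterByExpr, scaled by TMM and tested with edgeR 4.0.16 (quasi-likelihood, Benjamini-Hochberg adjusted p under 0.05) in R 4.3.3, after the script was tested on simulated data. Marker sums were compared by exact two-sided permutation with scipy 1.17.1, on log2 values with a pseudocount of 0.1 CPM. Alternatives were RLE factors, DESeq2 1.42.0, no filter, fits of 11 or 17 libraries, no mitochondrial genes, each library left out, and a term for high Xist, which was chosen after seeing the data.

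Genes were named by rule: the 15 largest changes each way among called genes with a mean of at least 50 normalised counts, fixed anchors and up to 4 called members of each list described, called genes of the genotype comparison, Dnajc15 and sex-linked genes. Other genes named, among them the called genes outside that rule, were chosen after their values were seen. The comparison and the gene lists were chosen with earlier results of these data known. Some genes of the lists are not reported here.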

Additional observations from a re-analysis of the deposited data

Results flagged for a closer look

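The response of Ccl9 to DSS differed between genotypes by an interaction test in edgeR. The log2 fold change in wild type minus that in MCJ-deficient mice was -3.71 ± 0.47 (SE; adjusted p = 0.0312, and 2.05e-10 to 0.583 over the alternatives). Its sign held in all 13 alternatives, and in 7 of them the adjusted p was above the threshold. The part of sex-linked transcripts, which differed between the same groups, was not tested.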

How the results depend on the processing

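The number of genes called in wild type moved with the method, from 35 higher and 7 lower to 298 and 153 in DESeq2, 100 and 37 with no filter, 381 and 33 in the fit of all 17 libraries and 337 and 63 in the fit of 11 libraries, while RLE factors and the removal of mitochondrial genes gave 35 and 7. Leaving out 1 library gave 5 to 126 higher and 1 to 17 lower genes, and the term for high Xist 2 and 0. For the difference between genotypes (0 higher, 1 lower), DESeq2 gave 34 and 107, the fit of all 17 libraries 0 lower, and leave-one-out fits 0 to 7 higher and 0 to 24 lower. The cause of these changes was not tested. All 42 called genes kept their sign in every alternative. Among the genes named and the marker sums, the sign turned in some alternatives for some of those that did not pass the test. Medians of lists near 0 turned too, from -0.20 to 0.46 for mucus genes, -0.15 to 0.10 for colonocyte transport, -0.34 to 0.22 for antimicrobial genes and -0.10 to 0.38 for Toll-like and NOD receptors. Ndufs1 had a log2 fold change of -0.01 with RLE factors, with DESeq2 and in the fit of all 17 libraries. With the term for high Xist, the values that turned were Ccl25 0.30, Ccl28 0.32, Isg15 0.43, Fcgbp 0.42, Agr2 0.04, Sdha -0.30, Atp5a1 -0.00, Plac8 0.06, Dnajc15 -0.08. Leave-one-out ranges that crossed 0 were those of Ccl28 (-0.21 to 0.18), Muc1 (-0.10 to 0.95), Fcgbp (-0.61 to 0.06), Slc26a3 (-0.53 to 0.22), Aqp4 (-0.30 to 0.15), Car4 (-0.20 to 0.39), Csf1r (-0.33 to 6.55), Cxcl5 (-0.25 to 1.44), Aqp8 (-0.38 to 0.25), Sdha (-0.15 to 0.29), Dnajc15 (-0.29 to 0.40), Tff3 (-0.36 to 0.54), Ndufs1 (-0.18 to 0.25), Plaur (-0.32 to 0.31), Krt20 (-0.44 to 0.15), Anxa1 (-0.20 to 0.63), Atp5a1 (-0.09 to 0.14), the monocyte sum (-0.09 to 0.24), the tuft cell sum (-0.34 to 2.71). No paired analysis was possible because the wild-type NN and NP libraries share no replicate numbers. With 3 libraries a group, an exact permutation test cannot go below 0.1, and genes with few counts in NN have wide counting intervals.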

Other observations

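Fuel oxidation genes had 0 calls in edgeR among 32 tested for fatty acid oxidation, ketogenesis and butyrate use, with 7 lower and 0 higher at an unadjusted p under 0.05 and a median log2 fold change of -0.32. Endoplasmic reticulum stress genes had 0 calls among 24, with 7 higher and 1 lower and a median of 0.43. Cytosolic heat shock chaperones had 0 calls among 14, with 4 higher and 0 lower and a median of 0.32. The shares over all tested genes at that unadjusted p were 6.40% higher and 4.48% lower.

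Several minor cell types had marker sums that did not overlap between groups, each at the smallest exact permutation p of 0.1 (adjusted p = 0.200 over 20 lists). Enteroendocrine markers, hormones of the epithelium led by Gcg, summed to 41.2, 64.3 and 85.7 CPM of nuclear counts in NN and 169, 145 and 101 in NP. Endothelial markers summed to 28.0, 12.8 and 70.9 against 89.6, 92.3 and 112. Red blood cell markers summed to 27.6, 16.9 and 29 against 152, 88.1 and 104. Pancreas markers, of which the elastase Cela1 gave 98.2%, were the one list lower in every NP library, at 369, 224 and 344 against 627, 524 and 473.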
